A study of Homo sapiens with 12 samples.

Results

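The genes described here are 42 genes of the integrated stress response and the unfolded protein response. They were taken by gene symbol from a list that was drawn up with earlier results of these data known. All 42 were found in the platform annotation, in a deposited table of 32321 rows. A set of 22 genes forms the amino acid and ATF4 branch, and 20 form the endoplasmic reticulum (ER) branch. ATF4, MTHFD2 and PSPH had more than 1 row each, and the row with the highest mean over the 12 arrays stands for the gene. The cells were L-428 and L-1236, established lines from Hodgkin lymphoma, a tumour of B-cell origin that has lost much of the B-cell programme. Each line carried either a vector with the fluorescent protein tGFP alone (tGFP) or one with tGFP, an internal ribosome entry site and EBF1 (tGFP/EBF1). EBF1 is a transcription factor of early B-cell development. All 4 groups were grown in the same medium with serum and added glutamine, cultured for 8 days after transduction and sorted for tGFP. Each group has 3 arrays, which the labels call independent samples. The cells are sorted populations that carry an added EBF1 gene. The promoter of the vectors is not given in the sources used here. Values are log2 signals, and a difference of 1 is a 2-fold change.

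In the integrated stress response, kinases that sense amino acid shortage, unfolded ER protein, viral RNA or heme deficiency phosphorylate the translation factor eIF2. Translation falls in general, while that of the ATF4 messenger rises, and ATF4 then switches on genes for amino acid synthesis, import and feedback. ATF4 activity is therefore set largely by translation, which an array does not measure. In the unfolded protein response, 3 ER sensors, PERK (EIF2AK3), IRE1 (ERN1) and ATF6, induce ER chaperones, folding enzymes and the degradation of misfolded protein. IRE1 acts by splicing the XBP1 messenger, and the table has a single value for XBP1 that does not separate the spliced form. In the B lineage the XBP1 arm is best known for equipping plasma cells to secrete antibody, and ATF3 is known as a factor that Hodgkin tumour cells express strongly.

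Array medians lay between 7.19 and 7.31, and correlations between arrays of a group between 0.992 and 0.997 over all rows. EBF1 read 8.63, 8.37 and 8.34 on the L-428 tGFP arrays and 12.96, 12.98 and 12.93 with EBF1. In L-1236 it read 7.24, 7.13 and 7.16, and 13.07, 13.27 and 13.10 with EBF1, so no array overlapped between groups of a line. The EBF1 row also lists PDGFRB, and its RefSeq accessions are those of EBF1. Of 6 Hodgkin marker genes none lay below the array median on all arrays, while all 4 T-cell genes, 3 of 4 monocyte genes and 2 of 4 stromal genes did. The mean over the T-cell genes was 6.38 to 6.56 in L-428 tGFP, 6.41 to 6.49 in L-428 tGFP/EBF1, 6.45 to 6.53 in L-1236 tGFP and 6.52 to 6.64 in L-1236 tGFP/EBF1. A mean over B-cell genes, 4 of 5 measured, was 6.5 to 6.6, 6.54 to 6.65, 7.15 to 7.27 and 7.44 to 7.48 in the same order. These genes did not move together. Between control lines the gap lay in CD22, with group means of 6.38 in L-428 and 8.91 in L-1236. MS4A1 (5.89 and 5.86) and CD79B (6.94 and 7.02) were close. CD79A arrays read 6.92 to 6.98 and 6.92 to 7.07. On the L-1236 EBF1 arrays CD79A was higher, at 8.14, 8.15 and 8.26. The group means there were 7.28 for CD79B, 8.51 for CD22 and 5.86 for MS4A1. Replicate 3 of L-428 tGFP and replicate 1 of L-1236 tGFP/EBF1 stood apart with narrow interquartile ranges of 2.28 and 2.17, against 2.47 and 2.49, and 2.26 and 2.31, on the others of their groups. The ranges also differed between the lines, at 2.17 to 2.31 on the L-1236 arrays and 2.41 to 2.49 on the L-428 arrays other than tGFP replicate 3. On L-428 tGFP replicate 3 bright rows read low. Rows between 9 and 11 lay a median of 0.21 below the other arrays of the group, rows of 11 or more 0.31 below, the ATF4 branch 0.27 below and the ER branch 0.29 below. Of the 42 genes, 38 (90.5%) read lower there than on both other arrays, as did 95.7% of all rows between 9 and 11. The calls and branch means for L-428 are therefore given with and without this array, while most single-gene values are from all arrays.

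The promoters of the branches hold different response elements, and these are shown because they are the letters through which ATF4, ATF6 and XBP1 are known to act. RefSeq promoter windows (GRCh38.p14, 250 bases before to 50 after a start) were found for 38 of the 42 genes. SHMT2, NUPR1, SLC7A11 and PSPH were not matched. A gene can have several windows and is counted once if any of them holds the motif. The ER stress response element ERSE, CCAAT and CCACG with 9 bases between them, occurs on either strand in 0.0916% of all 27305 genes with a window. It occurs in 7 of the 20 ER branch genes (XBP1, HSPA5, HSP90B1, CALR, CANX, PDIA6 and CRELD2) and in 0 of the 18 ATF4 branch genes with a window. ERSE-II, ATTGG and CCACG with 1 base between them, is in 0.0696% of genes and in HYOU1, SDF2L1 and HERPUD1. Together, 10 of 20 ER branch genes and 0 of 18 ATF4 branch genes hold either form. The core of the C/EBP-ATF response element (CARE), TGATGNAA, is in 4.46% of genes and in ATF3, CEBPG, CHAC1, ASNS, SLC3A2 and HERPUD1. The UPRE core TGACGTG is in 2.40% of genes and in HYOU1 alone of the 38, where it overlaps an ERSE-II match. Below are the stretches around the matches in 6 promoters, on the gene's strand with the matches in capitals. They are 2 ATF4 branch genes with a CARE match, HERPUD1 with CARE and ERSE-II, and 3 ER branch genes with ERSE or ERSE-II. The CARE of CHAC1 and of HERPUD1 and the ERSE-II matches of HYOU1 lie on the other strand and so appear as their reverse complements.
ASNS (chr7:97872444-97872501, minus strand, CARE at -68 to -61 from the start): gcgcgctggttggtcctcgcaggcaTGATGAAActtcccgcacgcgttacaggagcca
CHAC1 (chr15:40953237-40953294, plus strand, CARE at -209 to -202): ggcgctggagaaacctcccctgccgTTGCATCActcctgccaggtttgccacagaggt
HERPUD1 (chr16:56931941-56932060, plus strand, CARE at -176 to -169 and ERSE-II at -117 to -107): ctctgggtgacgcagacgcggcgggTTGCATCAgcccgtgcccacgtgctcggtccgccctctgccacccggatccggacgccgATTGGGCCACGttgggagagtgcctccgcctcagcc
XBP1 (chr22:28800578-28800646, minus strand, ERSE at -52 to -34): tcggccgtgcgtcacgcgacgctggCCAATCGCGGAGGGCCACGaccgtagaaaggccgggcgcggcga
HSPA5 (chr9:125241366-125241434, minus strand, ERSE at -66 to -48): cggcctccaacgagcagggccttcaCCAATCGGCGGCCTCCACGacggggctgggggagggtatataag
HYOU1 (chr11:119057249-119057418, minus strand, UPRE at -188 to -182 and ERSE-II at -185 to -175 and -79 to -69): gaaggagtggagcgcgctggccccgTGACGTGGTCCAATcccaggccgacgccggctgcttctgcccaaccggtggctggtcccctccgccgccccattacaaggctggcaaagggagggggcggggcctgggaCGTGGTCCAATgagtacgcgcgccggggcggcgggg
The EBF1 consensus, TCCC and GGGA with 2 bases between them, is in 1.49% of genes and in ATF5, SESN2 and SLC3A2. None of these 3 genes passed the test for an EBF1 effect in either line on the values as deposited. Still, ATF5 (0.26) and SESN2 (0.26) were higher on every L-428 EBF1 array than on every control array. SLC3A2 was lower on every L-1236 EBF1 array (-0.16). With quantile normalization ATF5 and SESN2 were called in L-428. A match describes the letters only, and no match says nothing of a factor's binding elsewhere.

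The first question was how these genes differed between tGFP/EBF1 and tGFP cells of each line. In L-428, 4 of the 42 genes rose, TRIB3, DDIT3, PPP1R15A and ATF3, and 1 fell, MTHFD2. All 5 belong to the ATF4 branch, and no ER branch gene passed. In L-1236 none rose and 10 fell, 7 of the ATF4 branch (MTHFD2, DDIT4, CEBPB, CHAC1, SLC7A11, ASNS and PSAT1) and 3 of the ER branch (SEL1L, HERPUD1 and XBP1). Every change was under 2-fold, the largest being the 1.47-fold rise of TRIB3. MTHFD2 fell in both lines.

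These calls are at an adjusted p of 0.05 or less in limma, over 20546 rows with a symbol. In L-428, 2.62% of all rows rose and 1.72% fell, against 9.52% and 2.38% of the 42 genes. In L-1236, 3.69% of all rows rose and 5.95% fell, against 0% and 23.8% of the 42. The mean over the 42 genes was 9.72 to 10.04 by group, above the array medians. The shares over all rows thus include many dimmer rows and are not shares at like brightness. No gene of the 42 reached the study's own limit of 2-fold in either line, a limit that 0.0973% of all rows passed in L-428 and 0.146% passed in L-1236. Arrays did not overlap for 12 genes higher and 1 lower in L-428, where 11.3% and 6.98% of all rows did so. In L-1236 they did not overlap for 1 gene higher and 23 lower, against 11.6% and 15.1% of all rows. The median change of the 42 was 0.06 in L-428 and -0.13 in L-1236, beside 0.0037 and 0.0080 over all rows. Each array holds RNA of many cells, so a smaller change in all cells and a larger one in some cannot be told apart.

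**Figure D1:**
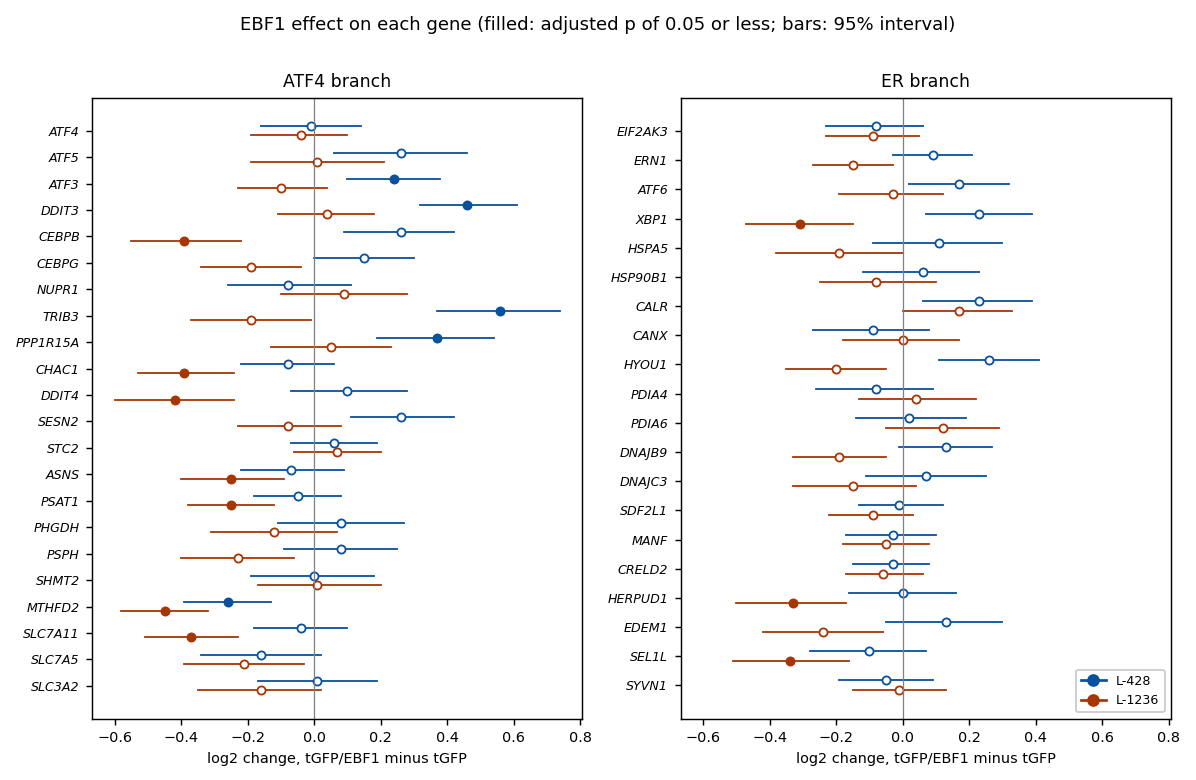
Log2 change (x axis, tGFP/EBF1 minus tGFP) of each of the 42 genes (y axis) in L-428 (blue) and L-1236 (brown), with 95% intervals from limma; filled points passed an adjusted p of 0.05. The L-1236 points lie left of 0 for 33 genes, and the 4 filled points right of 0 are all L-428 (TRIB3, DDIT3, PPP1R15A and ATF3).

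Among the transcription factors of the ATF4 branch, the ATF4 messenger itself showed no called change in either line. ATF4 read 11.39, 11.42 and 11.13 in L-428 tGFP and 11.25, 11.36 and 11.30 in L-428 tGFP/EBF1. In L-1236 the ATF4 readings were 10.92, 10.93 and 10.93 without EBF1 and 10.84, 10.93 and 10.89 with it. On this row the groups of each line overlapped. Its log2 change was -0.01 in L-428 (95% interval -0.16 to 0.14, adjusted p = 0.984) and -0.04 in L-1236 (-0.19 to 0.10, adjusted p = 0.804). A second ATF4 row, with a correlation of 0.92 to the first over the 12 arrays, gave -0.03 and -0.20 and did not pass either. On that row, however, the L-1236 arrays did not overlap, with 10.49, 10.46 and 10.31 without and 10.30, 10.30 and 10.06 with EBF1 (95% interval -0.37 to -0.03, adjusted p = 0.138).

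DDIT3, which encodes the stress factor CHOP, rose in L-428. It read 10.47, 10.40 and 10.16 in L-428 tGFP and 10.80, 10.81 and 10.81 in L-428 tGFP/EBF1. All EBF1 arrays lay above all control arrays, and the change was 0.46 ± 0.069 (SE), or 1.38-fold (adjusted p = 0.000349). In L-1236 the readings were 10.61, 10.60 and 10.64 without and 10.61, 10.69 and 10.67 with EBF1, which overlapped (0.04, 95% interval -0.11 to 0.18, adjusted p = 0.824). The EBF1 effects on DDIT3 differed between the lines by 0.43 ± 0.097 (adjusted p = 0.0135).

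ATF3, an early stress-induced factor, read 8.77, 8.78 and 8.53 in L-428 tGFP and 8.91, 8.91 and 8.99 in L-428 tGFP/EBF1. It rose by 0.24 ± 0.066 there (adjusted p = 0.0441), with no overlap of arrays. Its L-1236 readings were 8.89, 8.93 and 8.93 against 8.83, 8.82 and 8.82. These did not overlap either, in the opposite direction, but did not pass (-0.10, adjusted p = 0.472). The difference of the effects on ATF3 was 0.34 ± 0.093 (adjusted p = 0.0431). Both ATF3 calls were weak. The L-428 call was lost on leaving out any 1 of 8 arrays, L-428 tGFP replicate 3 among them (0.16, adjusted p = 0.0799). The difference was lost on leaving out any 1 of the 9 arrays other than L-428 tGFP.

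CEBPB encodes C/EBP beta, a partner of ATF4 and CHOP. In L-1236 it read 9.51, 9.41 and 9.45 without EBF1 and 9.06, 9.04 and 9.10 with it. It fell by 0.39 ± 0.079 (1.31-fold, adjusted p = 0.00281), with every EBF1 array below every control array. In L-428 it read 9.61, 9.82 and 9.42 against 9.94, 9.83 and 9.84, all higher with EBF1, a change of 0.26 that did not pass (adjusted p = 0.0801). The difference of effects, 0.64 ± 0.11 (adjusted p = 0.00163), held under every alternative tried. CEBPG, another ATF4 partner, changed by 0.15 in L-428 and -0.19 in L-1236 and did not pass (adjusted p = 0.363 and 0.113). ATF5, a factor translated in the same stress-dependent way as ATF4, changed by 0.26 and 0.01 (adjusted p = 0.154 and 0.974). NUPR1, a stress-induced chromatin protein, lay below all array medians on every array in group mean (6.72 to 6.88) and did not pass.

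The feedback genes of the branch followed different courses. TRIB3, a pseudokinase that restrains ATF4 and CHOP, read 9.45, 9.56 and 9.09 in L-428 tGFP and 9.91, 9.93 and 9.93 in L-428 tGFP/EBF1. It rose by 0.56 ± 0.087 (1.47-fold, adjusted p = 0.000589), with no overlap. L-1236 arrays read 9.98, 9.89 and 9.91 without and 9.81, 9.72 and 9.68 with EBF1, all lower with EBF1 but short of the threshold (-0.19, adjusted p = 0.212). The difference of 0.75 ± 0.12 (adjusted p = 0.0010) was the largest among the 42 genes and held under every alternative tried.

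PPP1R15A, which encodes the phosphatase subunit GADD34 that reverses eIF2 phosphorylation, rose in L-428. Its readings were 10.40, 10.41 and 10.03 without and 10.62, 10.70 and 10.61 with EBF1, which did not overlap (0.37 ± 0.084, adjusted p = 0.0156). Leaving out replicate 2 of L-428 tGFP/EBF1 ended that call. In L-1236 PPP1R15A read 10.55, 10.46 and 10.39 against 10.49, 10.58 and 10.48 (0.05, adjusted p = 0.812). The difference of effects did not pass (0.32, adjusted p = 0.154).

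CHAC1, an enzyme that degrades glutathione, fell in L-1236. In L-1236 it read 10.06, 10.02 and 9.83 without EBF1 and 9.66, 9.51 and 9.58 with it, a fall of 0.39 ± 0.068 (1.31-fold, adjusted p = 0.00081) without overlap. L-428 readings were 9.46, 9.48 and 9.34 against 9.35, 9.36 and 9.33, with overlap (-0.08, 95% interval -0.22 to 0.06, adjusted p = 0.758). The difference of the effects on CHAC1 was 0.31 and did not pass (adjusted p = 0.074). DDIT4, an inhibitor of the growth kinase mTORC1, fell in L-1236 by 0.42 ± 0.084 (1.34-fold, adjusted p = 0.00248), from 8.87, 8.85 and 8.87 to 8.49, 8.40 and 8.45. Its L-428 readings of 9.26, 9.17 and 8.83 without and 9.13, 9.19 and 9.25 with EBF1 overlapped (0.10, adjusted p = 0.722). For DDIT4 the effects differed by 0.52 ± 0.12 (adjusted p = 0.0124). SESN2, a leucine sensor of the mTORC1 pathway, changed by 0.26 in L-428 (adjusted p = 0.053) and -0.08 in L-1236 (adjusted p = 0.647). STC2, a secreted glycoprotein, had group means of 6.35 to 6.44, below the array medians, and did not pass.

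**Figure D2:**
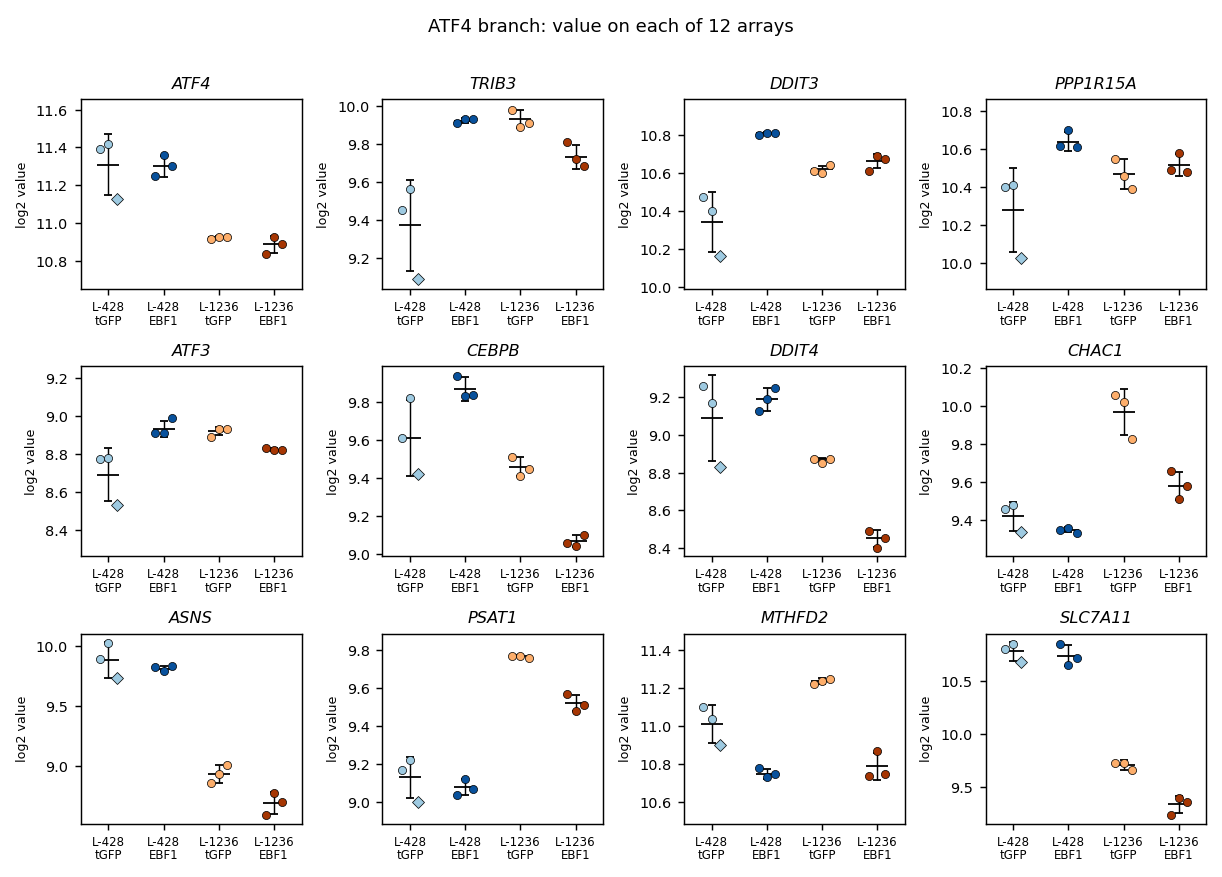
Log2 value (y axis) on each of the 12 arrays for 12 ATF4 branch genes in the 4 groups (x axis); bars are mean ± SD (n = 3) and the diamond is L-428 tGFP replicate 3. TRIB3, DDIT3, PPP1R15A and ATF3 were higher on all L-428 EBF1 arrays, and CEBPB, DDIT4, CHAC1, ASNS, PSAT1, MTHFD2 and SLC7A11 lower on all L-1236 EBF1 arrays.

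Of the 6 biosynthetic enzymes of the branch, 3 fell in L-1236 and 1 in L-428. MTHFD2, a mitochondrial folate enzyme that passes on carbon units from serine, read 11.10, 11.04 and 10.90 in L-428 tGFP and 10.78, 10.73 and 10.75 in L-428 tGFP/EBF1. Its L-1236 readings were 11.22, 11.24 and 11.25, and 10.74, 10.87 and 10.75 with EBF1. It fell by 0.26 ± 0.062 in L-428 (1.20-fold, adjusted p = 0.0193) and by 0.45 ± 0.062 in L-1236 (1.37-fold, adjusted p = 7.59e-05), and arrays overlapped in neither line. A second MTHFD2 row, with a correlation of 0.96 to the first, fell by 0.22 (adjusted p = 0.0442) and 0.41 (adjusted p = 0.000161). The L-428 call was lost without any 1 of 5 L-428 arrays (tGFP replicates 1 and 2 and all 3 with EBF1). The effects on MTHFD2 were not shown to differ between the lines (0.19, adjusted p = 0.294).

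ASNS, which makes asparagine, read 8.86, 8.93 and 9.01 in L-1236 tGFP and 8.59, 8.77 and 8.70 in L-1236 tGFP/EBF1. It fell by 0.25 ± 0.072 (1.19-fold, adjusted p = 0.0381) with no overlap, a call lost without any 1 of 7 arrays. PSAT1, the second enzyme of serine synthesis, read 9.77, 9.77 and 9.76 against 9.57, 9.48 and 9.51 in L-1236 and fell by 0.25 ± 0.063 (1.19-fold, adjusted p = 0.0146). Any 1 of 3 arrays left out (L-1236 tGFP replicates 1 and 2, tGFP/EBF1 replicate 3) ended the PSAT1 call. Neither enzyme passed in L-428, where ASNS read 9.89, 10.02 and 9.73 without and 9.82, 9.79 and 9.83 with EBF1 (-0.07, adjusted p = 0.847). PSAT1 read 9.17, 9.22 and 9.0 against 9.04, 9.12 and 9.07 there (-0.05, adjusted p = 0.862).

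PSPH, the last enzyme of serine synthesis, gave different answers on its rows. The brighter row changed by -0.23 in L-1236 and did not pass (adjusted p = 0.0838). The dimmer row fell by 0.38 (adjusted p = 0.00683), and its effects differed between the lines by 0.58 ± 0.12 (adjusted p = 0.00768). The brighter PSPH row gave 0.32 for that difference (adjusted p = 0.136). PHGDH, the first enzyme of the pathway, changed by 0.08 in L-428 and -0.12 in L-1236 (adjusted p = 0.837 and 0.525). SHMT2, the mitochondrial serine hydroxymethyltransferase, had changes of 0.00 and 0.01 (adjusted p = 0.996 and 0.959).

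Of the transporters, SLC7A11, the cystine importer xCT, fell in L-1236. It read 9.73, 9.73 and 9.66 without and 9.24, 9.40 and 9.36 with EBF1, a fall of 0.37 ± 0.068 (1.29-fold, adjusted p = 0.00118) without overlap. In L-428 SLC7A11 read 10.80, 10.85 and 10.68 against 10.85, 10.65 and 10.72 (-0.04, 95% interval -0.18 to 0.10, adjusted p = 0.932). The difference of the effects on SLC7A11 was 0.33 (adjusted p = 0.0519). SLC7A5, the leucine importer LAT1, changed by -0.16 and -0.21 (adjusted p = 0.461 and 0.161). SLC3A2, the heavy chain that LAT1 and xCT share, changed by 0.01 and -0.16 (adjusted p = 0.985 and 0.299).

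In the ER branch, changes were fewer and were called in L-1236 only, though a call in 1 line alone does not show that the lines differ. XBP1, the factor activated by IRE1, read 10.15, 10.13 and 10.18 in L-1236 tGFP and 9.77, 9.87 and 9.90 in L-1236 tGFP/EBF1. It fell by 0.31 ± 0.075 (1.24-fold, adjusted p = 0.0112). Readings of XBP1 in L-428 were 10.81, 10.76 and 10.47 without and 10.93, 10.90 and 10.91 with EBF1, all higher with EBF1 but not called (0.23, adjusted p = 0.101). For XBP1 the difference itself passed (0.54 ± 0.11, adjusted p = 0.00482) and held under every alternative tried. The L-1236 fall was lost without replicate 3 of L-1236 tGFP or replicate 1 of L-1236 tGFP/EBF1.

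None of the sensors passed for an EBF1 effect. ATF6 read 10.04, 9.98 and 9.72 against 10.15, 10.06 and 10.04 with EBF1 in L-428 (0.17, adjusted p = 0.266). In L-1236 it read 10.72, 10.73 and 10.73 against 10.63, 10.76 and 10.69 (-0.03, adjusted p = 0.857). ERN1 read 7.73, 7.77 and 7.86 against 7.87, 7.92 and 7.84 in L-428 (0.09, adjusted p = 0.577), with overlap. In L-1236 ERN1 read 8.20, 8.26 and 8.22 against 8.12, 8.07 and 8.05, without overlap but short of the threshold (-0.15, adjusted p = 0.126). EIF2AK3, the PERK gene that feeds the ATF4 branch, changed by -0.08 and -0.09 (adjusted p = 0.711 and 0.513).

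The 12 chaperones and folding enzymes gave no call in either line. HSPA5, which encodes the ER HSP70 chaperone BiP, read 12.08, 12.06 and 11.62 in L-428 tGFP and 12.00, 12.06 and 12.03 with EBF1. The low array was replicate 3, and the change of 0.11 had a 95% interval of -0.09 to 0.30 (adjusted p = 0.76). In L-1236 HSPA5 read 12.34, 12.32 and 12.26 against 12.04, 12.23 and 12.09 (-0.19, 95% interval -0.38 to 0.00, adjusted p = 0.252), with no overlap. PDIA4, a disulfide isomerase, read 9.56, 9.41 and 9.17 against 9.23, 9.35 and 9.31 in L-428 and 9.62, 9.77 and 9.75 against 9.67, 9.86 and 9.74 in L-1236. Its groups overlapped in both lines (-0.08 and 0.04, adjusted p = 0.814 and 0.834).

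DNAJB9, a BiP co-chaperone and a target of XBP1, read 8.83, 8.60 and 8.58 against 8.84, 8.78 and 8.81 in L-428 (0.13, adjusted p = 0.393). In L-1236 it read 8.37, 8.32 and 8.34 against 8.09, 8.17 and 8.21, all lower with EBF1 but not called (-0.19, adjusted p = 0.0959). HYOU1, the ER chaperone ORP150, came nearest to a call in L-428, with 10.11, 10.11 and 9.83 against 10.24, 10.30 and 10.28 (0.26, adjusted p = 0.0501). Its L-1236 readings were 10.49, 10.54 and 10.45 against 10.25, 10.37 and 10.27 (-0.20, adjusted p = 0.101). The opposite directions made a difference of effects of 0.45 ± 0.10 that passed (adjusted p = 0.0120). CALR, an ER lectin chaperone, was the only gene of the 42 higher on every EBF1 array of both lines (0.23 and 0.17), and neither change was called (adjusted p = 0.138 and 0.233). The other chaperones (HSP90B1, CANX, PDIA6, DNAJC3, SDF2L1, MANF and CRELD2) changed by -0.09 to 0.07 in L-428 and -0.15 to 0.12 in L-1236.

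Of the 4 genes of ER-associated degradation, 2 fell in L-1236. HERPUD1, a membrane scaffold of the degradation complex, read 11.35, 11.25 and 11.17 without and 10.91, 10.94 and 10.92 with EBF1. It fell by 0.33 ± 0.078 (1.26-fold, adjusted p = 0.00854), with no overlap, and leaving out replicate 1 of L-1236 tGFP ended the call. L-428 readings of HERPUD1 were 11.56, 11.66 and 11.30 against 11.56, 11.49 and 11.46 (0.00, 95% interval -0.16 to 0.16, adjusted p = 0.997). SEL1L, the adaptor of the ubiquitin ligase HRD1, fell by 0.34 ± 0.085 in L-1236 (1.26-fold, adjusted p = 0.0147), from 11.03, 11.08 and 11.13 to 10.59, 10.87 and 10.76. Its L-428 readings of 12.04, 12.18 and 11.80 against 11.94, 11.90 and 11.87 overlapped (-0.10, adjusted p = 0.733). The SEL1L call was lost without L-1236 tGFP replicate 2 or 3 or tGFP/EBF1 replicate 1. EDEM1, a mannosidase that marks misfolded glycoproteins, changed by 0.13 and -0.24 (adjusted p = 0.623 and 0.0917). SYVN1, the HRD1 ligase itself, changed by -0.05 and -0.01 (adjusted p = 0.897 and 0.973).

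**Figure D3:**
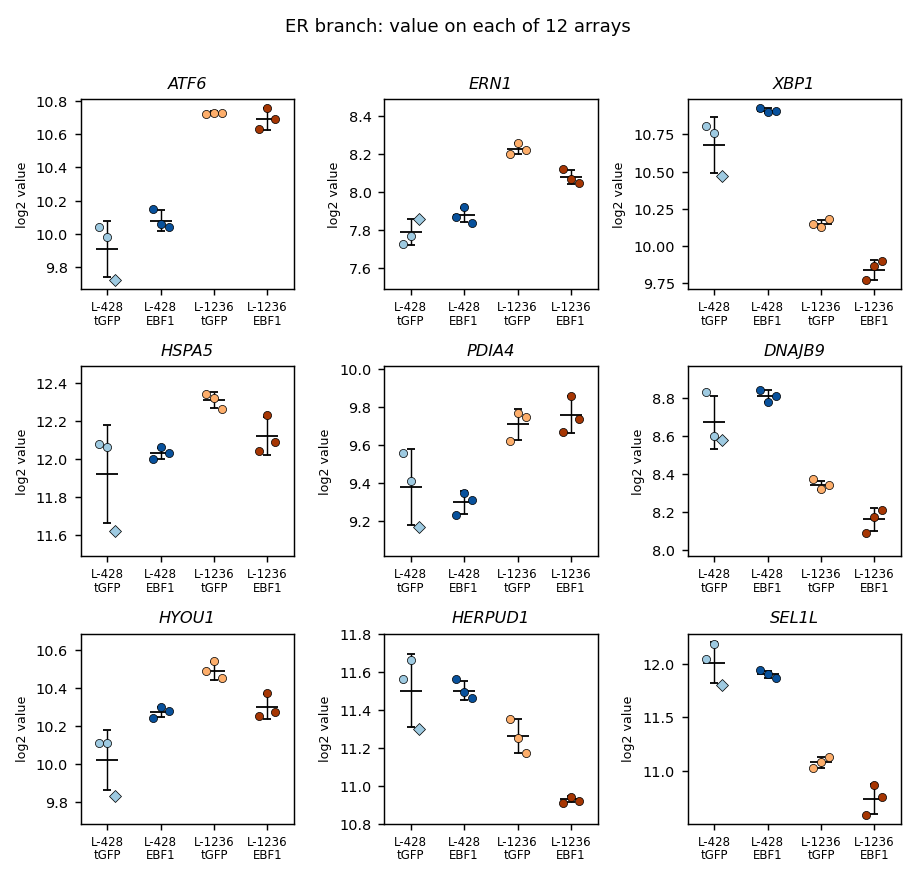
Log2 value (y axis) on each of the 12 arrays for 9 ER branch genes in the 4 groups (x axis); bars are mean ± SD (n = 3) and the diamond is L-428 tGFP replicate 3. XBP1, HERPUD1 and SEL1L were lower on every L-1236 EBF1 array than on every L-1236 control array, while PDIA4 overlapped in both lines.

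A further comparison asked whether EBF1 acted differently in the lines, by testing the difference of the effects. The difference, L-428 minus L-1236, passed for 7 of the 42 genes, all with a positive sign. They were TRIB3, CEBPB, XBP1, DDIT4, HYOU1, DDIT3 and ATF3. Over all rows 3.38% passed with a positive and 1.79% with a negative sign, against 16.7% and 0% of the 42. Of the ATF4 branch 5 of 22 passed and of the ER branch 2 of 20. A positive sign was found for 35 of the 42 genes and for 49.2% of all rows, with a median of 0.21 over the 42. Without L-428 tGFP replicate 3 it was found for 31 of the 42 and 51.2% of all rows, with a median of 0.13. Without L-1236 tGFP/EBF1 replicate 1 it was found for 34 of the 42 and 53.3% of all rows, with a median of 0.18. Centring each array on its median ended the calls of ATF3, DDIT3, DDIT4 and HYOU1.

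Because of the low array, the comparison in L-428 was repeated without replicate 3 of L-428 tGFP. The ATF4 branch mean had been 10.02, 10.07 and 9.80 on the L-428 tGFP arrays and 10.05, 10.06 and 10.07 on the EBF1 arrays. The ER branch mean was 10.04, 10.04 and 9.80 against 10.02, 10.00 and 10.01. Apart from replicate 3, the branch means of the groups lay close together. Without it the difference of group means went from 0.10 to 0.02 for the ATF4 branch and from 0.05 to -0.03 for the ER branch, and the median change of the 42 genes went from 0.06 to -0.03.

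The called genes were less dependent on that array. TRIB3 (0.42, adjusted p = 0.000422), DDIT3 (0.37, adjusted p = 0.000391) and PPP1R15A (0.24, adjusted p = 0.0264) still rose, and MTHFD2 still fell (-0.32, adjusted p = 0.00243). ATF3 was lost and SLC7A5 was now lower (-0.28, adjusted p = 0.0201). Uncalled rises shrank for HYOU1 (0.26 to 0.16, adjusted p = 0.107), CEBPB (0.26 to 0.16, adjusted p = 0.205) and XBP1 (0.23 to 0.13, adjusted p = 0.222). HSPA5 (0.11 to -0.04) and DDIT4 (0.10 to -0.03) changed sign, while ERN1 went from 0.09 to 0.13. A change above 0 was then found for 18 of the 42 genes in L-428, in place of 24. Of all rows, 2.26% then rose and 4.10% fell in L-428. No ER branch gene passed in L-428 with or without the array. All 7 differences of effect were kept without it, and ERN1 was added. Over all rows, 3.41% then passed with a positive and 3.68% with a negative sign, against 8 and 0 of the 42 genes.

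L-1236 branch means were 9.74, 9.71 and 9.70 without and 9.55, 9.56 and 9.55 with EBF1 for the ATF4 branch. They were 10.00, 10.02 and 10.01 against 9.84, 9.96 and 9.91 for the ER branch. Every EBF1 array lay below every control array in both branches. Replicate 1 with EBF1, the array with the narrow range, was the lowest for the ER branch. Without it the difference of means was -0.16 for the ATF4 branch, as before, and -0.08 in place of -0.11 for the ER branch. The calls in L-1236 then numbered 6 of the ATF4 branch and 1, HERPUD1, of the ER branch, where 4.03% of all rows fell. A single ER branch gene of 20 is near that share. The arrays share an estimate of the spread, and without L-428 tGFP replicate 3 the L-1236 calls rose to 18 lower and 1 higher, where 8.74% of all rows fell. The falls added by this were CEBPG, TRIB3, SLC7A5, ERN1, HSPA5, HYOU1, DNAJB9 and EDEM1, and the rise was CALR.

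**Figure D4:**
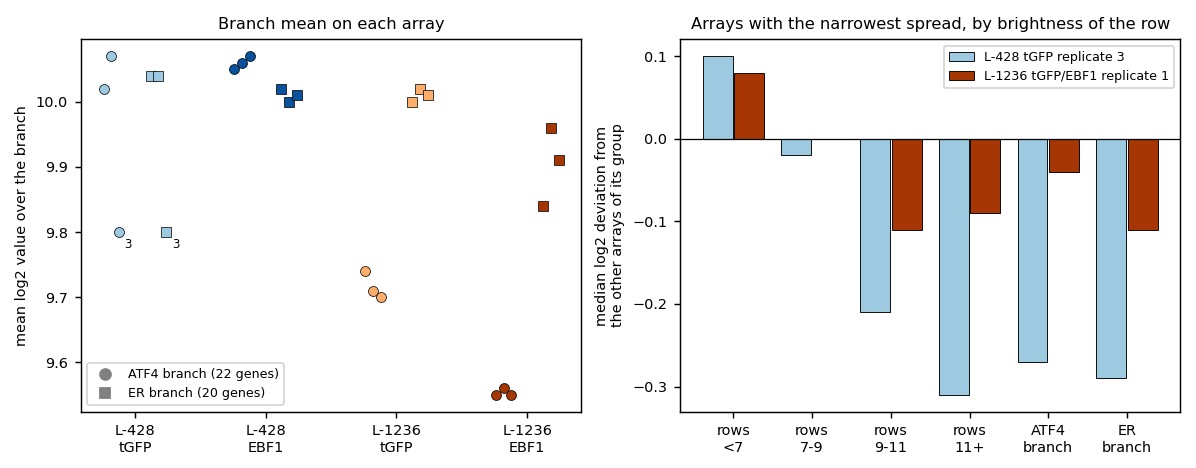
Left, mean log2 value (y axis) over the 22 ATF4 branch genes (circles) and the 20 ER branch genes (squares) on each array of the 4 groups (x axis), with L-428 tGFP replicate 3 marked by its number. Right, median log2 deviation (y axis) of the arrays with a narrow range from the others of their group, for rows by brightness and for both branches (x axis); on L-428 tGFP replicate 3 rows of 11 or more lay at -0.31 and the branches at -0.27 and -0.29.

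The lines were also compared without EBF1, L-428 tGFP against L-1236 tGFP. Differences were larger here than those with EBF1. Of the 42 genes 15 were higher and 17 lower in L-428, where 26.1% and 21.7% of all rows were. PHGDH, SLC7A11 and SLC7A5 were higher and DNAJC3 lower by at least 2-fold, a size that 7.20% of all rows reached. Without replicate 3 of L-428 tGFP, 20 were higher and 16 lower, where 28.2% and 23.9% of all rows were, and 6 in place of 3 were at least 2-fold higher. SLC3A2 (1.12), SEL1L (1.03) and ASNS (1.02) joined PHGDH, SLC7A11 and SLC7A5, and DNAJC3 was still lower by at least 2-fold (-1.24). CEBPB, EIF2AK3, HSP90B1, CANX and EDEM1 were then also called higher, and CEBPG was no longer called. Quantile normalization ended the control-line calls of DDIT4, HERPUD1 and MANF and added PPP1R15A and SHMT2. How far the wider interquartile range of most L-428 arrays enters this comparison was not tested. The values that follow are from all arrays, as deposited. Of the ATF4 branch 17 of 22 passed and of the ER branch 15 of 20.

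Of the 42 genes, PHGDH set the lines apart most. This enzyme, which commits carbon from glycolysis to serine, read 11.79, 11.84 and 11.47 in L-428 tGFP and 7.39, 7.37 and 7.41 in L-1236 tGFP. The PHGDH difference was 4.31 ± 0.090, or 19.8-fold (adjusted p = 1.03e-17). The L-1236 level was close to 7.29, the median of the L-1236 tGFP arrays. The table gives no background reading, so 19.8-fold may be a lower limit. With EBF1, PHGDH read 7.46, 7.16 and 7.19 in L-1236 and 11.71, 11.81 and 11.83 in L-428. Other enzymes of the pathway did not share this gap. PSPH was 1.41-fold higher in L-428 (adjusted p = 3.81e-05), and PSAT1 was 1.56-fold lower (adjusted p = 5.22e-08).

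The 3 amino acid transporters among the 42 genes were higher in L-428 control cells. SLC7A11 differed by 1.07 (2.10-fold, adjusted p = 1.13e-10), SLC7A5 by 1.07 (2.10-fold, adjusted p = 3.44e-09) and SLC3A2 by 0.99 (1.98-fold, adjusted p = 1.09e-08). ASNS was 1.93-fold higher in L-428 (adjusted p = 1.61e-09) and ATF4 1.30-fold higher (adjusted p = 0.000126). Several stress factors and effectors of the same branch stood the other way, though not DDIT4 (0.22, higher in L-428). TRIB3 (-0.56), CHAC1 (-0.54), SESN2 (-0.45), DDIT3 (-0.27) and ATF3 (-0.22) were lower in L-428, as was ATF5 (-0.70, adjusted p = 3.53e-06). The ATF4 branch held 8 genes higher and 9 lower in L-428.

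In the ER branch, ATF6 was 1.76-fold lower in L-428 (adjusted p = 1.67e-08) and ERN1 1.36-fold lower (adjusted p = 2.33e-06), while XBP1 was 1.44-fold higher (adjusted p = 6.68e-06). DNAJC3, the BiP co-chaperone p58IPK, read 7.92, 7.87 and 7.72 in L-428 tGFP and 9.02, 9.18 and 9.18 in L-1236 tGFP. It was lower in L-428 by 1.29 ± 0.087 on the log2 scale, a 2.45-fold difference (adjusted p = 2.59e-10). Chaperones passed in both directions, 3 higher and 6 lower of 12. HSPA5 was 1.31-fold lower in L-428 (adjusted p = 0.0015) and CALR 1.44-fold lower (adjusted p = 1.42e-05). For the degradation genes, 3 of 4 were higher in L-428, SEL1L by 1.90-fold (adjusted p = 1.94e-08), SYVN1 by 1.22-fold (adjusted p = 0.00134) and HERPUD1 by 1.18-fold (adjusted p = 0.0132).

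**Figure D5:**
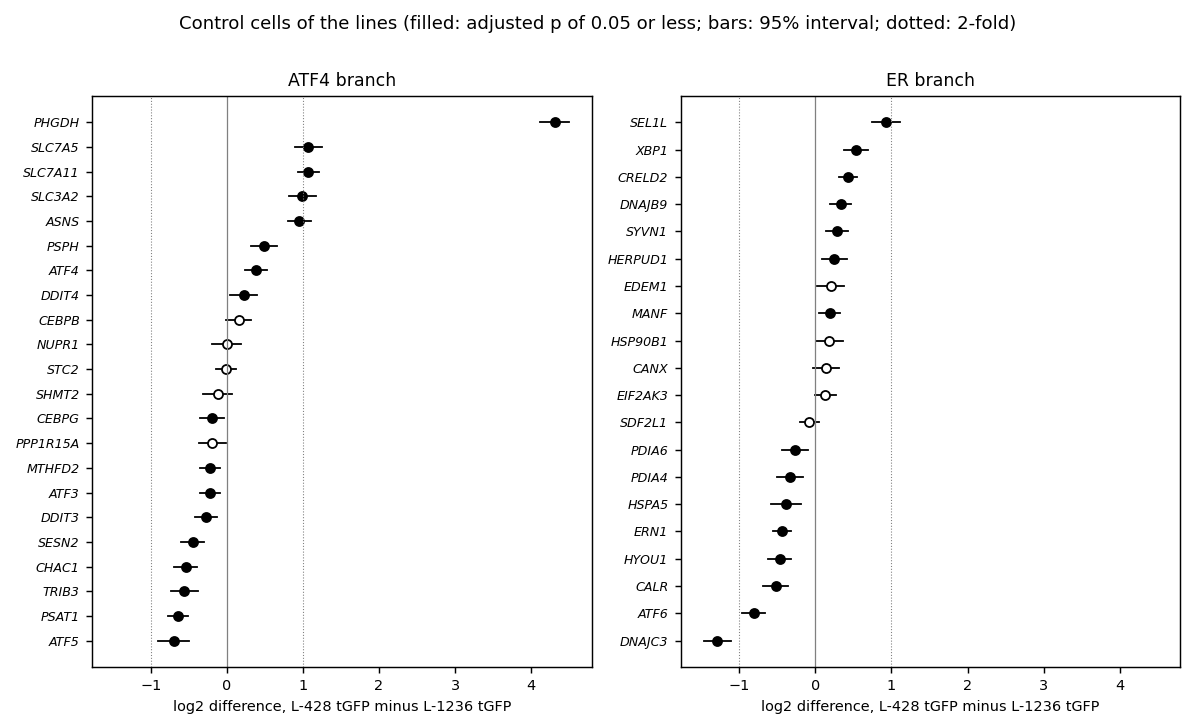
Log2 difference (x axis, L-428 tGFP minus L-1236 tGFP) of the 42 genes (y axis), with 95% intervals from limma; filled points passed an adjusted p of 0.05 and dotted lines mark 2-fold. PHGDH stands at 4.31, and the next largest differences are DNAJC3 at -1.29 and SLC7A5 and SLC7A11 at 1.07.

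Other genes of these pathways, listed beside the 42, were read in the same fit. Of 114 such genes 105 were measured. Among the 47 that belong to the eIF2 and ATF4 pathway, 1 rose and 1 fell in L-428, and 0 rose and 11 fell in L-1236. Among 58 further genes of ER folding, transport and degradation, 2 rose and 0 fell in L-428, and 1 rose and 8 fell in L-1236. The L-428 shares, 2.13% higher and 2.13% lower of the 47 and 3.45% and 0% of the 58, were near the 2.62% and 1.72% of all rows. In L-1236, 23.4% of the 47 and 13.8% of the 58 fell, beside 5.95% of all rows. Their median changes in L-1236 were -0.06 and -0.07.

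The L-1236 falls were most frequent among ATF4-regulated transporters and amino acid enzymes, 6 of 11 measured. CTH, which makes cysteine, fell by 0.60 (adjusted p = 4.44e-06), the neutral amino acid transporter SLC1A4 by 0.42 (adjusted p = 0.000259) and the mitochondrial folate enzyme MTHFD1L by 0.39 (adjusted p = 0.000475). None of these 11 passed in L-428, though 9 of them had a change below 0 there. CTH (-0.22, adjusted p = 0.0682) and SLC1A4 (-0.22, adjusted p = 0.0766) were lower on every L-428 EBF1 array than on every control array. MTHFD1L changed by -0.10 in L-428 (adjusted p = 0.577). Of 13 genes of tRNA charging and export, 3 fell in L-1236, the leucyl-tRNA synthetase LARS1 (-0.39), the tRNA exporter XPOT (-0.37) and the alanyl-tRNA synthetase AARS1 (-0.27). LARS1 fell in L-428 as well (-0.41, adjusted p = 0.00174). Of 9 signalling and growth factor genes, NIBAN1, a stress-induced regulator of translation, fell by 0.65 (adjusted p = 2.85e-05) and the stress cytokine GDF15 by 0.48 (adjusted p = 0.000335) in L-1236, and none passed in L-428.

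Among 14 genes of the eIF2 machinery, EIF2B3, a subunit of the exchange factor eIF2B, rose in L-428 (0.32, adjusted p = 0.00238), and none passed in L-1236. Of 16 folding and disulfide genes, 1 rose and 3 fell in L-1236. The rise was SIL1, the nucleotide exchange factor of BiP (0.36, adjusted p = 0.00195), and among the falls were the HSP70 family member HSPA13 (-0.46) and the oxidase ERO1B (-0.31). FKBP14, an ER prolyl isomerase, rose in L-428 (0.33, adjusted p = 0.0206), as did UFM1, a ubiquitin-like modifier of the ER (0.29, adjusted p = 0.0132). Of 12 degradation genes, WFS1 (-0.24) and SELENOK (-0.22) fell in L-1236. Of 20 translocation and transport genes, SEC23B (-0.27) and SEC24D (-0.26), both of the vesicle coat COPII, and the cargo receptor LMAN1 (-0.31) fell there. None of 10 further sensors and regulators passed for an EBF1 effect in either line. In control cells, large differences among these genes were in UBE2J1, a ubiquitin-conjugating enzyme of ER degradation (2.93 higher in L-428), GDF15 (-2.85) and SLC1A4 (2.10). UBE2J1 in L-1236 (mean 7.0) and GDF15 in L-428 (mean 7.06) lay below the array medians, so these differences too may be lower limits, and their order is not settled.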

How the data were processed

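The authors deposited 1 table of log2 values, a row for each array feature and a column for each of 12 arrays. Per the labels' protocols, RNA of sorted cells was amplified and labelled with Affymetrix whole-transcript kits. The sources used here do not state how probes were summarized and normalized. The log base was read from the range of the values. The number of arrays limits the precision.

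Rows were named from the platform annotation. Of 32321 rows, 19158 carried 1 symbol, 1388 several and 11775 none. The 20546 with a symbol were fitted in limma 3.58.1 under R 4.3.3 with moderated variances, the residual degrees of freedom being 8 and the prior ones 9.98,, as 4 group means over 12 arrays without a block. Benjamini-Hochberg adjustment took all 20546 rows within each of 4 contrasts. The fit was tested on simulated data with independent noise on each row and array. The simulation held no shift of bright rows on a whole array. It therefore cannot show the error rate under the shift seen on L-428 tGFP replicate 3. The study's design text sets 2-fold and a 5% false discovery rate as limits, so calls are given with and without the fold. The members, lists, motifs and tests were chosen with earlier results of these data known. Values on every array are given for 14 listed members and for each member that passed in an EBF1 contrast or in the difference of effects. Of the other lists, up to 3 passing genes per list and contrast are named. PHGDH, DNAJC3 and the members near the threshold were named after their values were seen. The alternatives tried were each array left out, an adjusted p of 0.01, a replicate block, array weights, robust variance with a trend, every row tested, the dimmest 40% of rows dropped, centring on the median, quantile normalization and fits of the arrays of a contrast alone. Leaving out both arrays with a narrow range was added after seeing the data. Python 3.11.15 with matplotlib 3.10.9 drew the figures.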

Additional observations from a re-analysis of the deposited data

Results flagged for a closer look

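The effect of EBF1 differed between the lines, by the test of the difference itself in limma, for 7 of the 42 genes and for 12 of the 105 other pathway genes measured, where 3.38% of all rows passed with a positive and 1.79% with a negative sign. Of the 47 other eIF2 and ATF4 genes 14.9% and 0% passed with these signs, and of the 58 other ER genes 6.90% and 1.72%. The difference in log2 change, L-428 minus L-1236, was 0.75 for TRIB3, 0.64 for CEBPB, 0.54 for XBP1, 0.52 for DDIT4, 0.45 for HYOU1, 0.43 for DDIT3 and 0.34 for ATF3. It was 0.85 for NIBAN1, 0.46 for XPOT, 0.43 for GDF15, 0.38 for CTH and 0.37 for PYCR1 among ATF4-regulated genes. For the eIF2 machinery it was 0.39 for EIF2S1 and 0.30 for EIF2B3. For ER genes it was 0.46 for FKBP14, 0.44 for SELENOK, 0.43 for UFM1, 0.42 for SEC23B and -0.36 for CREB3L2, the only negative value.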

How the results depend on the processing

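Counts of the 42 genes called moved with the processing, while none of the 26 single-gene calls that were followed turned its direction. These were the calls for an EBF1 effect or a difference of effects and the control-line calls of at least 2-fold. Uncalled changes could turn, such as HSPA5 in L-428 (0.11, and -0.04 without L-428 tGFP replicate 3). The count was 5 in L-428, 10 in L-1236, 7 for the difference of effects and 32 for the control lines. Quantile normalization gave 12, 17 and 15 for the first 3, median centring 2, 6 and 3, array weights (whose estimation stopped before convergence) 11, 29 and 20, and an adjusted p of 0.01 gave 2, 6 and 3. In L-428, testing every row gave 3 and the L-428 arrays alone 3. Leaving out single arrays gave 2 to 8 in L-428, 7 to 19 in L-1236, 6 to 11 for the difference and 29 to 36 for the control lines. The 19 came without L-428 tGFP replicate 3 and the 8 and 11 without L-428 tGFP replicate 2. In L-428 the count was 3, 2 and 3 without replicates 1, 2 and 3 of tGFP/EBF1. Without both arrays of narrow range 17 were called in L-1236. The ATF4 branch mean in L-1236 differed by -0.16, by -0.19 without dim rows and by -0.23 when each array was summarised by its median over the genes. The cause of these shifts was not tested. Of 26 single-gene calls followed through 591 refits, 520 kept the call and 71 lost it. All 26 were followed because they had passed. The total includes the control-line calls of PHGDH, SLC7A11, SLC7A5 and DNAJC3, each kept in all of its 23 refits. Among the EBF1 calls, TRIB3 and DDIT3 in L-428 and CEBPB, CHAC1, DDIT4, MTHFD2 and SLC7A11 in L-1236 were lost in none. The same held for the differences of CEBPB, TRIB3 and XBP1, while every other EBF1 call or difference was lost in at least 1 refit. Same-numbered arrays had correlations of deviations between -0.21 and 0.28. No steady pairing by number was seen, and 3 arrays a group are too few to settle whether the numbers pair them. With a replicate block 5, 10, 6 and 33 genes were called. A fit of the difference on 1 line alone could not be made. With 3 arrays a group, the median standard error of an EBF1 effect was 0.076 over the 42 genes.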
